A study of Rattus norvegicus with 10 samples.

Results

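Cck and Cartpt encode the precursors of a pair of neuropeptides of the mesolimbic system, and their transcripts were followed across 5 regions of the rat brain on oligonucleotide arrays. Every probe set that the platform annotation gives to one of these genes alone was taken. They numbered 2 of 8740 non-control probe sets, 1 for Cck (X01032_at) and 1 for Cartpt (U10071_at), and both passed the filter on low values. The series holds 10 arrays, 1 of rats given cocaine and 1 of rats given saline for each of the ventral tegmental area (VTA), nucleus accumbens (NA), caudate putamen (CPU), amygdala (AMY) and prefrontal cortex (PFC). The sources used here do not give the dose, the schedule, the strain, the age or whether tissue was pooled. The values are model-based expression indices from the dChip software, on a linear scale. The genes were selected on their known region levels and cocaine ratios in the VTA, so these values are a description and carry no test.

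Cholecystokinin, the product of Cck, is cut from its precursor into short amidated and sulfated peptides. It is made by many excitatory and some inhibitory neurons of the cortex and amygdala, and in the rat also by a large part of the midbrain dopamine neurons that project to the nucleus accumbens. It acts through the receptors encoded by Cckar and Cckbr. Cartpt encodes the precursor of the CART peptides, named for a transcript regulated by cocaine and amphetamine in rat striatum. CART is made by neurons of the accumbens, of several hypothalamic nuclei and of the Edinger-Westphal nucleus, which lies near the VTA, and its receptor is not settled. Both precursors pass through dense core vesicles, where prohormone convertases, carboxypeptidase E and an amidating enzyme complete the peptides.

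The median index of an array lay between 2211 and 2343, and exact zeros numbered 8 to 226 an array. Neither Cck nor Cartpt was listed at 0 or lay below the floor of 1028 on any array. Within a region, the cocaine and saline arrays had r between 0.939 in the AMY and 0.991 in the CPU over the tested probe sets. With 1 array per treatment and region, each SD of a region (n = 2) spans its cocaine and its saline array and so holds any treatment difference too. Precision is limited by the number of arrays, and in bulk tissue fewer cells of a type cannot be told apart from less RNA per cell. Th, tyrosine hydroxylase, which starts dopamine synthesis, was higher in the VTA than elsewhere. Th had an index of 7544 and 6363 on the cocaine and saline arrays of the VTA, and between 2599 and 2884 on the other 8. Other dopamine neuron markers set the VTA apart less clearly. Of 7 tested against the mean of the other 4 regions, 2 were higher (Th and Aldh1a1), 1 was lower (Drd2) and 4 did not pass (limma, adjusted p under 0.05). Of all tested probe sets, 11.1% passed. The calls of Aldh1a1 and Drd2 were lost under some alternatives.

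Cck was most abundant in the PFC and AMY and least abundant in the CPU and VTA. Its index was 27640 on the cocaine array and 28113 on the saline array of the PFC, and 18366 and 20542 in the AMY. The NA followed with 11048 with cocaine and 11180 with saline. The PFC, AMY and NA did not overlap with each other or with the remaining regions. Their means were 27877 ± 334, 19454 ± 1538 and 11114 ± 93.3 (SD, n = 2 each). The CPU had 7238 with cocaine and 5707 with saline, and the VTA had 8504 and 4161. These last regions overlapped, with means of 6473 ± 1083 in the CPU and 6333 ± 3072 in the VTA (SD, n = 2 each). The mean of the VTA was thus 0.570 times that of the NA, and the mean of the PFC was 4.40 times that of the VTA. Markers of excitatory forebrain neurons, 11 genes, had a summed index of 93108 with cocaine and 96911 with saline in the PFC, 78832 and 80975 in the AMY, 55490 and 52635 in the NA, 59660 and 59080 in the CPU and 42731 and 43619 in the VTA. Unlike Cck, this sum was lower in the NA than in the CPU. It was led by Nrgn, with 39827 and 38428 in the PFC against 6768 and 7392 in the VTA, and the members did not share one pattern. Rasgrf1, an activator of Ras, had 8116 with cocaine and 10459 with saline in the VTA, above its PFC values of 4288 and 6138. Their part in the Cck levels was not tested. The pattern goes against a purely mesolimbic label for Cck, since the transcript was highest outside the VTA and NA.

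Cartpt had the opposite arrangement, with high values in the VTA and NA alone. It had an index of 6627 on the cocaine array and 10588 on the saline array of the VTA, and of 7116 and 6999 in the NA. In the CPU it stood at 1655 with cocaine and 2013 with saline, in the AMY at 1672 and 1731, and in the PFC at 1538 and 1446. The 4 arrays of the VTA and NA all lay above the other 6. Region means were 8608 ± 2801 in the VTA, 7058 ± 82.9 in the NA, 1834 ± 253 in the CPU, 1701 ± 42.0 in the AMY and 1492 ± 65.4 in the PFC (SD, n = 2 each). The VTA and NA overlapped, and so did the CPU and AMY, while the PFC lay below the AMY by more than their spread. The NA mean was 3.85 times that of the CPU, the neighbouring part of the striatum. The transcript was therefore uneven within the striatum.

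**Figure D1:**
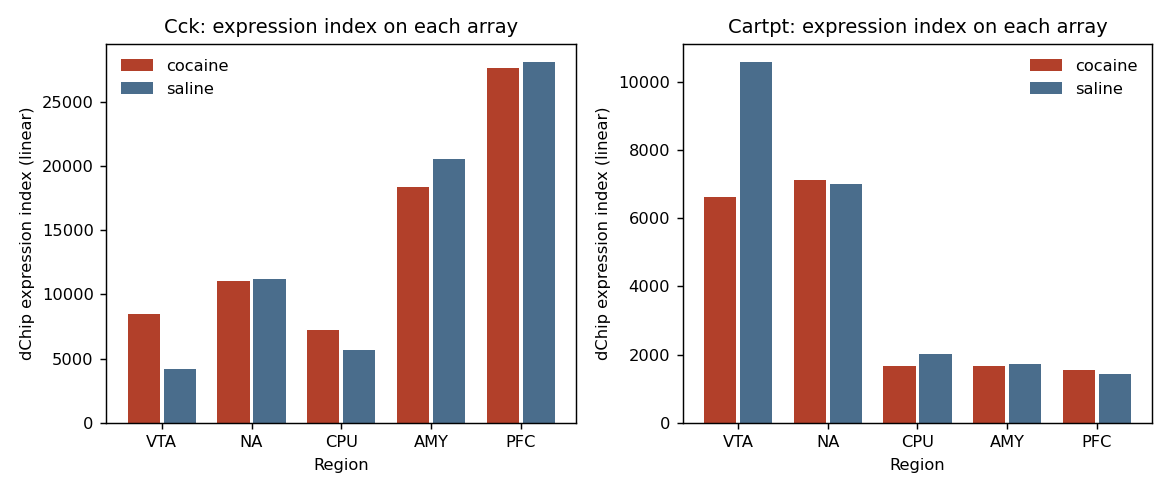
Expression index (dChip, linear scale, vertical axes) of Cck (left) and Cartpt (right) on each of the 10 arrays, by region, with 1 bar for the cocaine array and 1 for the saline array. Cck is highest in the PFC at 27640 and 28113, and Cartpt stands at 6627 to 10588 in the VTA and NA but at 2013 or below in the other regions.

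The place of the VTA in the order of regions differed between cocaine and saline arrays. Among cocaine arrays, Cartpt was lower in the VTA (6627) than in the NA (7116), and among saline arrays it was higher in the VTA (10588) than in the NA (6999). For Cck, the VTA (8504) stood above the CPU (7238) among cocaine arrays and below it (4161 against 5707) among saline arrays. The PFC remained highest for Cck on both, and the NA remained above the CPU, AMY and PFC for Cartpt on both.

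The sequence before the Cartpt start is shown because the gene is known as a target of cyclic AMP signalling through CREB, whose binding element can be looked for by its letters. The 250 bases before the RefSeq start were taken from the GRCr8 assembly, on the minus strand, with the match to the cyclic AMP response element TGACGTCA in capitals. The annotated gene span, 32989215 to 32991794, holds the whole window and reaches upstream of it. The position of a match therefore depends on the start chosen.
Cartpt promoter, chr2:32991236-32991485: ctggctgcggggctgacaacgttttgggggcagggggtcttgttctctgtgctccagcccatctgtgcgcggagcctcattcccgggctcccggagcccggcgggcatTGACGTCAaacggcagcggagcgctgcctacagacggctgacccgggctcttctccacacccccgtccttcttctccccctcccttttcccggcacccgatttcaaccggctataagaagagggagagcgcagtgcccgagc
The window held 1 match, starting at position -142 from the start, and the letters read the same on both strands. Of 33469 RefSeq windows of the same length, 1.59% held this element. The AP-1 element TGANTCA, searched on both strands, is not in the window and was found in 6.34% of windows. A match is a description of letters and not a measured binding site.

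Cocaine and saline arrays were then compared within each region, as 1 array against 1. In the VTA, Cck was 2.04-fold higher with cocaine, at 8504 against 4161 (log2 ratio 1.03). Cartpt was 1.60-fold lower with cocaine there, at 6627 against 10588 (log2 ratio -0.68). The 2 genes thus lay on opposite sides in the same pair of arrays. Of 5142 tested probe sets in the VTA, 0.117% had a fold of at least 2 with the higher value on the cocaine array, and 0.758% a fold of at least 1.5 with the lower value there. Only 4 probe sets had a higher ratio than Cck and 19 a lower one than Cartpt. These shares describe this pair of arrays and give no replicate check, and the genes had been picked with these ratios known.

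In the NA, neither gene differed by more than 1.02-fold. Cck had 11048 with cocaine and 11180 with saline (log2 ratio -0.02), and Cartpt had 7116 and 6999 (log2 ratio 0.02). A fold of at least 1.5 was reached by 0.229% of 5232 tested probe sets in this pair. The accumbens is a region where both peptides have been studied in drug responses, and on these arrays both pairs of values lay close together.

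In the CPU the genes again lay on opposite sides, with smaller ratios. Cck was 1.27-fold higher with cocaine, at 7238 against 5707 (log2 ratio 0.34), and Cartpt 1.22-fold lower, at 1655 against 2013 (log2 ratio -0.28). Both lay outside the middle 95% of tested probe sets in that pair, from -0.26 to 0.21, although 0.153% of 5229 reached 1.5-fold. That range takes in tested probe sets of all levels. Cartpt was dim in the CPU, at percentile 37.07 of the cocaine array and 45.43 of the saline array. In the AMY and PFC, ratios of Cck were -0.16 and -0.02 and those of Cartpt -0.05 and 0.09, all inside the middle 95% of their own pair. The AMY and PFC pairs were also the widest, with 8.89% and 4.92% of tested probe sets at a fold of at least 1.5.

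**Figure D2:**
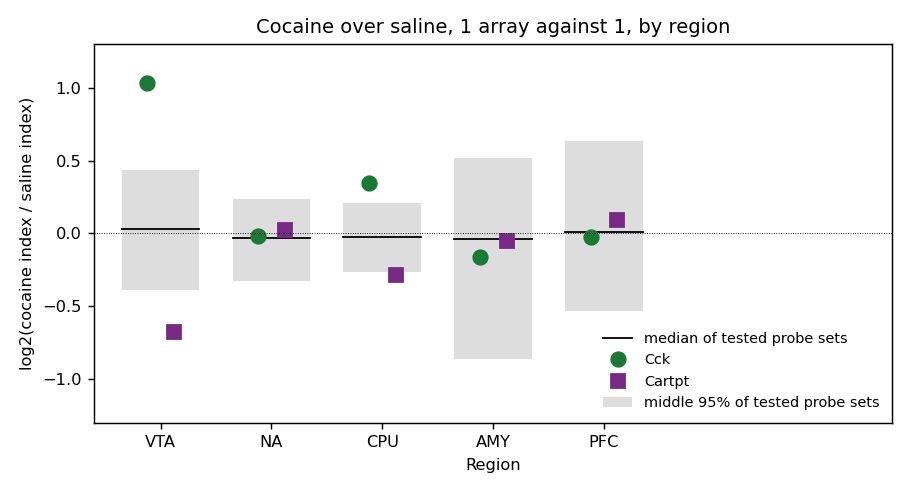
Log2 ratio of the cocaine array to the saline array (vertical axis) in each region for Cck (circles) and Cartpt (squares), with the middle 95% of tested probe sets as a grey bar and their median as a line. In the VTA, Cck lies above and Cartpt below the bar, at 1.03 and -0.68, while both lie near 0 in the NA.

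Over the 5 regions, the log2 ratio averaged 0.23 ± 0.48 for Cck and -0.18 ± 0.31 for Cartpt (SD, n = 5 regions). Each gene was higher with cocaine in 2 regions and lower in 3. The VTA pair set most of both values, and without it the means were 0.03 ± 0.22 for Cck and -0.05 ± 0.16 for Cartpt (SD, n = 4 regions). Each mean lay within 1 SD of 0 with and without the VTA.

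Other transcripts differed between the VTA arrays as well, and their part in the ratios of Cck and Cartpt was not tested. Hypothalamic neuron markers were measured because CART is abundant in the hypothalamus, which borders the VTA. Hcrt, the orexin precursor of the lateral hypothalamus, had 6808 with cocaine and 23627 with saline in the VTA (log2 ratio -1.80), against 2738 to 3620 on the other 8 arrays. Avp, the vasopressin precursor, had a log2 ratio of -0.39, Trh, the thyrotropin-releasing hormone precursor, of -0.14, and Pomc and Ghrh, precursors of arcuate peptides, of -0.01 each. All 5 tested hypothalamic markers with a value on all arrays had the lower value with cocaine. Of these, 1 was at least 1.5-fold lower, where 0.758% of all tested probe sets were. The median of the 5 was -0.14 against 0.03 over all tested probe sets. Their summed index was 19315 on the cocaine and 37610 on the saline array of the VTA, and 14503 to 17304 on the other arrays. Hcrt made up most of the gap between the VTA sums. Pmch, the precursor of melanin-concentrating hormone, was listed at 0 on both VTA arrays. Oxt, the oxytocin precursor, had 5087 with cocaine and a listed 0 with saline. Zeros were treated as having no value, so Pmch and Oxt have no ratio in the VTA. Most of these markers differed by little, and in other regions the list took either side, with all 5 higher with cocaine in the PFC (median 0.20) and 4 of 5 lower in the AMY (median -0.11) and in the NA (median -0.09).

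Markers of dopamine neurons lay on the other side in the VTA. Th had a log2 ratio of 0.25 in the VTA. The dopamine transporter gene Slc6a3 had 0.48, Ddc, which makes dopamine from its precursor, 0.48, and Aldh1a1, an aldehyde dehydrogenase of ventral dopamine neurons, 0.54. Drd2, the dopamine autoreceptor, had 0.13, the growth factor receptor gene Ret 0.34 and Gch1, an enzyme of cofactor synthesis, 0.37. A fold of at least 1.5 was reached by 0 of these 7 tested markers, against 1.65% of all tested probe sets. All 7 were higher with cocaine, with a median of 0.37 against 0.03 over all tested probe sets. This one-sidedness was not particular to the VTA. In the PFC, where the Cck ratio was -0.02, 6 of 7 were higher with cocaine (median 0.28, with 1 at 1.5-fold), while 6 of 7 were lower in the AMY (median -0.19) and 7 of 7 in the CPU (median -0.09). The VTA values of Gch1, Ret and Drd2 lay within the range of the other 8 arrays. The summed index of the 9 markers with a value on all arrays was 35225 with cocaine and 26971 with saline in the VTA, and 19020 to 24530 on the other arrays. Slc18a2 and Nr4a2, a vesicular monoamine transporter gene and a dopamine neuron transcription factor gene, were too dim to be tested.

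Markers of other nuclei near the VTA showed no common side. Ucn, the urocortin precursor of the Edinger-Westphal nucleus, where CART is also made, had 2173 with cocaine and 2542 with saline (log2 ratio -0.23). Its VTA values lay close to the 2272 to 2900 of the other arrays. The acetylcholine transporter gene Slc18a3 had a log2 ratio of 0.19, the serotonin transporter gene Slc6a4 of 0.12 and the serotonin neuron factor Fev of -0.06. The VTA values of Slc18a3 and Slc6a4 did not exceed the range of the other arrays. Those of Fev, 5294 with cocaine and 5501 with saline, lay below the 5610 to 6496 of the other arrays. The median of these 4 markers was 0.03, and their summed index with the dim Chat and Tph1 was 16446 with cocaine and 16130 with saline.

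Inhibitory neuron markers were split in the VTA. Pvalb, parvalbumin of fast-spiking interneurons, had 5166 with cocaine and 2298 with saline. Sst, the somatostatin precursor, had 3638 with cocaine and 9413 with saline. Gad1, one of the enzymes that make GABA, had 4065 and 8527, and Slc32a1, the vesicular GABA transporter gene, 3249 and 5198. Gad2, the other GABA enzyme, was next in size, with 4906 with cocaine and 3106 with saline. In other regions 7 of 9 markers were higher with cocaine in the AMY (median 0.22), and 7 of 9 lower in the PFC (median -0.19) and in the NA (median -0.10). Of 9 tested markers, 2 were at least 1.5-fold higher and 4 at least 1.5-fold lower with cocaine, where 1.65% of all tested probe sets reached that fold. The summed index of all 10 markers was 43045 with cocaine and 51153 with saline in the VTA.

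**Figure D3:**
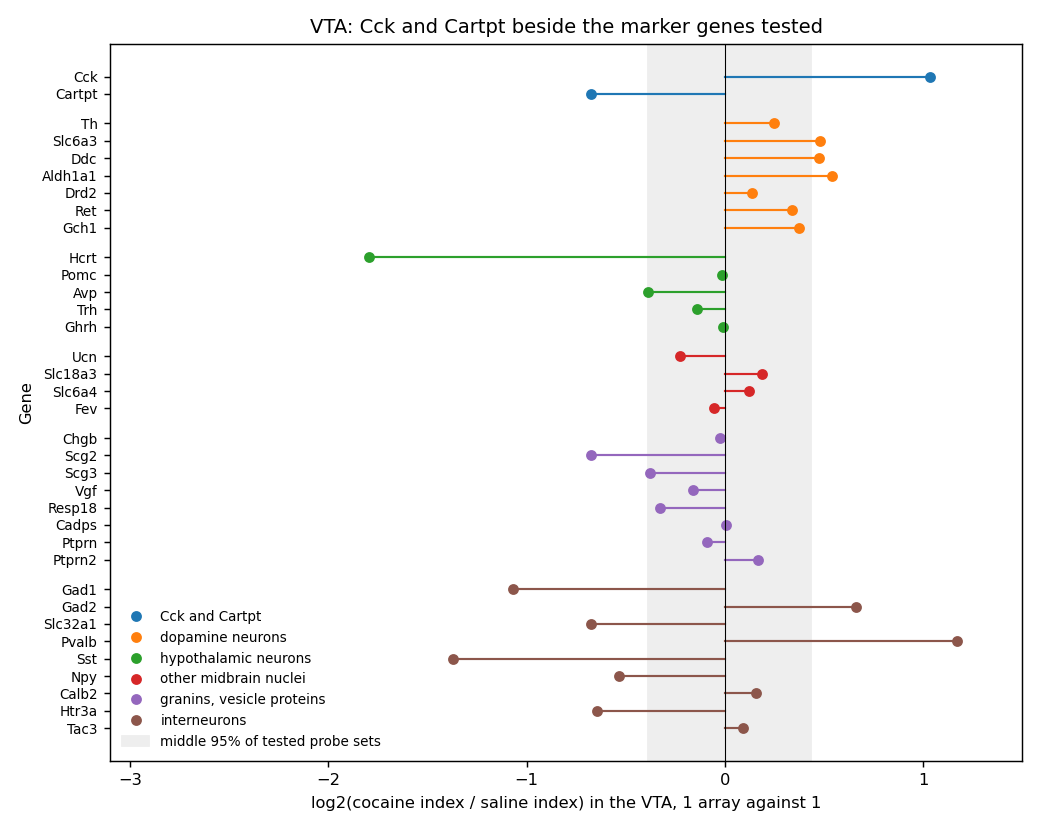
Log2 ratio of the cocaine to the saline array in the VTA (horizontal axis) for Cck, Cartpt and tested members of 5 gene lists. Members shown had a value on all arrays, and the middle 95% of all tested probe sets is shaded. All 7 dopamine neuron markers lie above 0 here (6 of 7 do in the PFC too, and 1 of 7 in the AMY), and the 5 hypothalamic markers lie below 0, Hcrt at -1.80 and Pomc and Ghrh at -0.01 (all 5 lie above 0 in the PFC).

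The receptors were set beside the ligands next. Cckbr, the main cholecystokinin receptor of the brain, had 2 probe sets. On the more abundant one its index was 3478 with cocaine and 3567 with saline in the VTA and 3472 and 3480 in the NA, and it reached 4259 and 3637 in the PFC. Over all arrays it lay between 3158 and 4259. In limma's fit of all tested probe sets, with treatment as a term, Cckbr differed from the mean of the other 4 regions by a log2 difference of 0.17 ± 0.11 (SE) in the PFC (adjusted p = 0.532) and of -0.03 ± 0.11 (SE) in the VTA (adjusted p = 0.982). The other Cckbr probe set was dim, between 1249 and 2060. Gast, the precursor of the related peptide gastrin, lay between 1931 and 3120 and did not pass in any of these comparisons. Cckar and Gpr160, a proposed CART receptor gene, were not analysed here.

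Genes of the secretory pathway that both precursors share were then read from the same fit. Of 80 listed genes in 6 lists, 64 had a probe set and 48 were tested. In the VTA against the mean of the other 4 regions, 6 of 48 passed, 4 higher and 2 lower, or 12.5%, against 11.1% of all 5232 tested probe sets, which is close to it. Among granins and vesicle proteins, 3 of 8 were higher, 0 lower and 5 did not pass, with a median log2 difference of 0.11 against 0.02 over all tested probe sets. Scg2, a granin that is stored and cut with neuropeptides, was 3.89-fold higher in the VTA (adjusted p = 0.000356), and Resp18, a protein of peptide-secreting cells, 3.67-fold higher (adjusted p = 0.000112). Cadps, which primes dense core vesicles for release, was 1.65-fold higher (adjusted p = 0.00714), but its call was lost without the VTA cocaine array (adjusted p = 0.147), without the VTA saline array (adjusted p = 0.0621) and with no filter on dim probe sets (adjusted p = 0.0515). Of the prohormone processing enzymes and their chaperones, 0 of 11 passed. The largest difference was that of Pam, the amidating enzyme that completes cholecystokinin, with a log2 difference of 0.30 ± 0.08 (SE, adjusted p = 0.0567).

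Scg2 and Resp18 also differed between the VTA arrays on the side of Cartpt. Scg2 had 7641 with cocaine and 12208 with saline there (log2 ratio -0.68), and Resp18 had 23452 and 29429 (log2 ratio -0.33). Scg3, another granin, had 7049 with cocaine and 9146 with saline. Of the 8 tested granins and vesicle proteins, 1 was at least 1.5-fold lower with cocaine in the VTA, where 0.758% of all tested probe sets were. In total, 6 of the 8 were lower there, and the median of the list was -0.12 against 0.03 over all tested probe sets. The same number was lower in the PFC with a median of -0.24, where the Cartpt ratio was 0.09, and 7 of 8 were higher in the AMY (median 0.17). In the same VTA arrays the processing enzymes differed little. Their log2 ratios lay between -0.21 and 0.16, with 0 of 11 at 1.5-fold, against 1.65% of all tested probe sets.

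Other neuropeptide precursors were read in the same way, 15 of them tested. In the VTA against the mean of the other 4, Hcrt was 4.19-fold higher (adjusted p = 0.00787, or 0.0794 with no filter on dim probe sets), Penk, the enkephalin precursor, 2.18-fold lower (adjusted p = 0.000131) and Npy, the neuropeptide Y precursor, 1.90-fold lower (adjusted p = 0.00406, or 0.0738 without the VTA cocaine array). The remaining 12 of 15 did not pass. Sst, with the largest difference among them, had a log2 difference of -0.72 ± 0.27 (SE, adjusted p = 0.159). In the NA, Penk was 2.34-fold higher (adjusted p = 0.000404) and the substance P precursor gene Tac1 3.32-fold higher (adjusted p = 0.00818). These were the only 2 of 48 genes that passed in the NA, or 4.17%, against 0.535% of all tested probe sets. The Tac1 call was lost with no filter on dim probe sets (adjusted p = 0.170), without the cocaine or saline array of the NA (adjusted p = 0.306 and 0.366) and without the cocaine or saline array of the CPU (adjusted p = 0.0552 and 0.0614). Cartpt thus shared high NA values with precursors of striatal projection neurons, but Penk and Tac1 were higher in the CPU, at 27745 and 23885 with cocaine and 28595 and 22518 with saline, where Cartpt was low.

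Set directly against the NA, the VTA had 7 of 48 genes past the threshold, 4 higher and 3 lower, or 14.6%, against 4.28% of 5239 probe sets. Higher in the VTA were Resp18 (2.54-fold, adjusted p = 0.00264), Scg2 (2.31-fold, adjusted p = 0.0189), Cadps (1.69-fold, adjusted p = 0.0292) and Hcrt (4.30-fold, adjusted p = 0.0348). Lower were Penk (3.68-fold, adjusted p = 0.000136), Tac1 (3.01-fold, adjusted p = 0.00883) and Npy (2.07-fold, adjusted p = 0.0123). The calls of the 6 genes other than Penk were each lost on leaving out some single array. Those of Scg2, Cadps and Tac1 were lost without the VTA saline array, among others. The count was 1 without the NA cocaine array, 2 without the NA saline array, 4 without the VTA cocaine array and 4 without either CPU array. Receptors and gastrin (0 of 2), processing enzymes (0 of 11), peptidases (0 of 5) and transcription factors that bind CRE and AP-1 elements (0 of 7) had no member past the threshold in this comparison.

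In the PFC, where Cck was highest, 4 of 48 genes passed, all lower, or 8.33%, against 5.08% of all tested probe sets. They were Penk (6.26-fold, adjusted p = 3.01e-06), Tac1 (7.12-fold, adjusted p = 0.000214), Resp18 (2.92-fold, adjusted p = 0.000596) and Scg2 (2.62-fold, adjusted p = 0.00429). The Scg2 call was lost without the PFC cocaine array (adjusted p = 0.0611) and with no filter on dim probe sets (adjusted p = 0.0699). The share of 8.33% rests on these 4 peptide and granin genes, and their relation to the Cck level was not tested. Penk and Tac1 are also among the striatal projection neuron markers, of which 8 of 10 tested were lower in the PFC. Penk had 2457 with cocaine and 2462 with saline in the PFC, and Scg2 had 1306 and 1743.

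In the CPU, where both peptide genes were low or intermediate, 5 of 48 pathway genes passed, or 10.4%, against 4.09% of all tested probe sets. Penk was 3.36-fold and Tac1 4.76-fold higher there (adjusted p = 3.84e-05 and 0.000638), while Cadps was 2.07-fold, Chgb, chromogranin B, 1.71-fold and Scg2 1.77-fold lower (adjusted p = 0.00236, 0.0202 and 0.0328). All 3 lower calls were lost without the cocaine or the saline array of the CPU. That of Scg2 was lost under 10 of 16 alternatives, including scaling to the same median (adjusted p = 0.0657) and quantile normalization (adjusted p = 0.0625). It was also lost with no filter on dim probe sets (adjusted p = 0.175), with zeros raised to the floor (adjusted p = 0.0852) and without either NA array. That of Chgb was lost under 6 of 16, including zeros raised to the floor (adjusted p = 0.0530) and no filter (adjusted p = 0.127). Leaving out the VTA cocaine or the NA saline array lost the Chgb call too. In the AMY, next to the PFC in Cck level, 1 of 48 passed, or 2.08%, against 0.612% of all tested probe sets. It was Penk, 1.74-fold higher (adjusted p = 0.0105). Its call was lost without either CPU array or without the NA cocaine array, with a highest adjusted p of 0.0686.

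Across the 5 regions, cocaine against saline with region as a block gave 0 of 48 pathway genes past limma's adjusted threshold. Of all 5244 tested probe sets, 0% passed. An unadjusted p under 0.05 was reached by 69, fewer than that threshold alone would give with no effect. The largest log2 changes among granins were those of Scg2 at -0.19 ± 0.13 (SE) and Chgb at -0.19 ± 0.11 (SE). Among processing genes they were those of Scg5, the chaperone of a prohormone convertase, at -0.12 ± 0.06 (SE) and Cpe, carboxypeptidase E, at -0.11 ± 0.06 (SE). Cckbr had -0.03 ± 0.09 (SE). Transcription factors of the CRE and AP-1 families, read because of the element in the Cartpt promoter, had no common side across regions. All 7 were higher with cocaine in the VTA, with a median log2 ratio of 0.23, and all 7 in the PFC, with a median of 0.20, but all 7 were lower in the AMY, with a median of -0.41. Creb1, the factor that binds the full element, had 2649 with cocaine and 2338 with saline in the VTA, on the opposite side from Cartpt, and 2463 and 2476 in the NA.

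The genes whose log2 values ran most like those of Cck over the 10 arrays, among 4051 probe sets compared, were Napa, a factor of vesicle fusion (Pearson r = 0.975), Dgkz, a diacylglycerol kinase (0.972), Olfm1, a secreted neuronal glycoprotein (0.948), Rasl11b, a small GTPase (0.939), and a probe set of the adaptor gene Sorbs2 (0.916). The sizes differed widely. Olfm1 had 18953 with cocaine and 23234 with saline in the PFC and 4170 and 4454 in the VTA, while Napa moved only between 14185 and 16834 over all arrays. Another Napa probe set had r = 0.63 with Cck, and the other Sorbs2 probe sets 0.77 and 0.29. The lowest r were those of the ribosomal protein gene Rpl6 (-0.975), the mitochondrial cochaperonin gene Hspe1 (-0.972) and the proteasome gene Psma2 (-0.961). The 10 points share 5 regions and the pairs of arrays, so these values describe region patterns.

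For Cartpt, the highest r were those of Slc4a4, a sodium bicarbonate cotransporter (0.935), Nsg1, a neuronal endosomal protein (0.926), Rnh1, a ribonuclease inhibitor (0.918), Muc4, a mucin (0.907), and a probe set of Ache, which breaks down acetylcholine (0.897). Slc4a4 had 10077 with cocaine and 10589 with saline in the VTA and 8018 and 8238 in the NA, above the 4283 to 6131 of the other arrays. The other tested Ache probe sets had r of 0.40 and -0.14. The lowest r were those of Nrgn, a calmodulin-binding protein of forebrain neurons (-0.953), the kinase gene Camk4 (-0.908) and another Sorbs2 probe set (-0.902). On this Nrgn probe set the index was 4722 with cocaine and 4216 with saline in the VTA, and 25345 and 27284 in the PFC. Cck and Cartpt themselves had r = -0.60 over the 10 arrays, which was -0.34 without the VTA pair and -0.43 without the PFC pair.

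**Figure D4:**
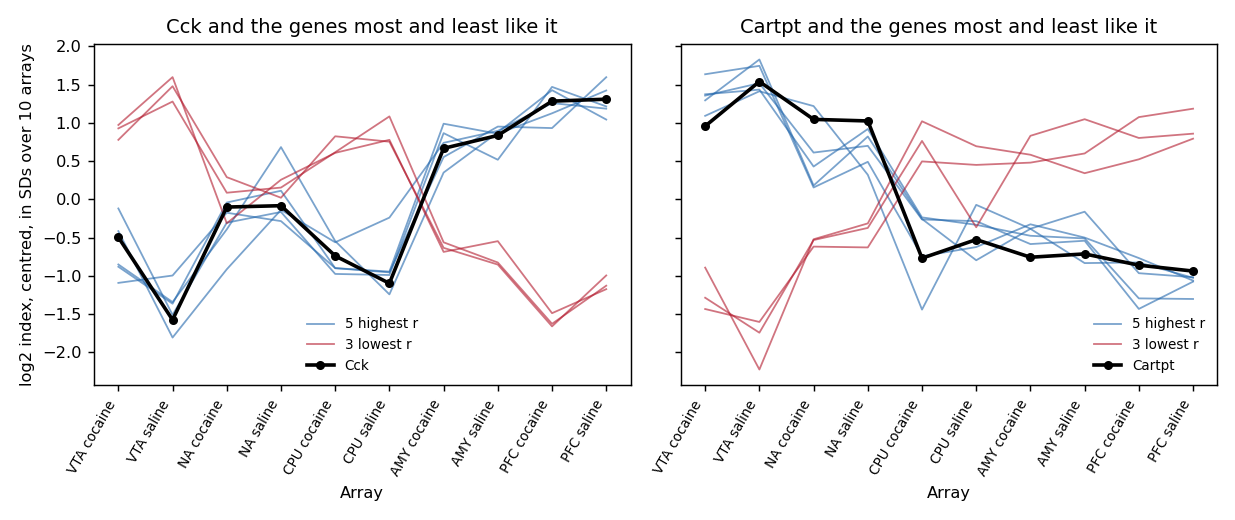
Log2 index of each array, centred and divided by the SD over the 10 arrays (vertical axis), for Cck (left) and Cartpt (right) in black, the 5 genes with the highest r in blue and the 3 with the lowest r in red; lines only join the points of a gene. The blue lines follow the step between regions, with r from 0.916 to 0.975 for Cck and from 0.897 to 0.935 for Cartpt.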

How the data were processed

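The deposited intensities are expression indices that the authors, per the labels, computed with dChip, on a linear scale. Its version, model and scaling across arrays are not given here, and no scan or slide is recorded to test as a batch. Groups were taken from the labels. Of 8799 probe sets, 59 controls were left out, and genes were named from the platform annotation where it gave 1 symbol (7006 probe sets, with several symbols for 308 and none for 1426). The 593 exact zeros were treated as having no value. Each remaining value under the 20th percentile of values above 0, an index of 1028, was set to that floor, and log2 was taken. The upper 60% of probe sets by mean, 5244, were tested.

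Levels and ratios of Cck and Cartpt were described without a test. Other genes were tested with limma 3.58.1 in R 4.3.3 on all 10 arrays, with a term for each region and one for treatment, 4 residual degrees of freedom, an intensity trend and Benjamini-Hochberg adjustment over all tested probe sets at 0.05. Nothing in the labels shows that arrays came from separate animals, so the p-values reflect only the spread between these arrays, which may be technical. A gene was represented by its tested probe set with the highest mean and a value on all arrays. Genes were named by these rules: both peptide genes, all measured receptor genes, up to 4 members of each list by size of difference, every tested hypothalamic, dopamine neuron and neighbouring midbrain marker in the VTA, and the 5 highest and 3 lowest Pearson r with each peptide gene. The fit was tested on simulated data. The members, the 14 lists and the rules were chosen with earlier results of these data known. Python 3.11.15 with pandas 2.3.3 and numpy 2.4.6 served for the ratios, counts and correlations, and matplotlib 3.10.9 for the plots. Alternatives covered scaling, the floor, zeros, the filter, the trend and single arrays.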

Additional observations from a re-analysis of the deposited data

Results flagged for a closer look

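The log2 ratio of cocaine to saline in the VTA had the opposite sign from that of the AMY, NA and PFC for Cck and from that of the NA and PFC for Cartpt. In the CPU both genes had the same sign as in the VTA (0.34 for Cck and -0.28 for Cartpt), and in the AMY Cartpt did too (-0.05). For Cck the ratio of 1.03 in the VTA exceeded that of the AMY by 1.19, that of the NA by 1.05 and that of the PFC by 1.06. For Cartpt, the ratio of -0.68 in the VTA differed from that of the NA by -0.70 and from that of the PFC by -0.77. Each ratio rests on 1 array against 1, so these differences were not tested.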

How the results depend on the processing

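The cocaine ratios of Cck and Cartpt moved by less than the SD over regions under all 40 combinations of gene, region, scaling and floor. The floor settings could not move them, since neither gene lay below the floor on any array. That SD, 0.48 for Cck and 0.31 for Cartpt, includes the VTA ratio and is a wide margin for the smaller ratios. Region levels, as log2 differences from the mean of the other 4 regions, differed most by treatment in the VTA, where Cck was -0.74 with cocaine arrays only and -1.74 with saline arrays only (-1.24 with both), and Cartpt 1.498 and 2.12 (1.81 with both). The SD of a pair cannot single out that region, since the same difference sets it. Each difference takes in the other 4 regions, so the VTA arrays also enter the values of the other regions. The NA index of Cartpt itself was 7116 with cocaine and 6999 with saline. Elsewhere, these differences from the other regions moved by more than the SD of a region's pair in the following cases. With cocaine arrays only (this split, and the correlations without a region, were chosen after seeing the data), Cartpt was -0.99 in the AMY, 1.63 in the NA and -1.14 in the PFC, and Cck 0.65 in the AMY, -0.27 in the NA and 1.39 in the PFC. With saline arrays only, Cartpt was -1.15, 1.37 and -1.47 and Cck 1.14, 0.047 and 1.71 in the same regions. Under quantile normalization Cck was -0.14 in the NA and 1.63 in the PFC. Counts of pathway genes past the threshold changed by over 1.5 times under quantile normalization in the AMY (2, against 1), with zeros raised to the floor in the CPU (3, against 5) and in the VTA against the NA (4, against 7), and with no filter on dim probe sets in the NA (1, against 2) and in the VTA against the NA (2). Leaving out each array in turn gave 0 to 4 in the AMY, 2 to 7 in the CPU, 1 to 2 in the NA, 3 to 5 in the PFC, 4 to 9 in the VTA and 1 to 7 in the VTA against the NA; where a region kept 1 array, it was assumed to vary like the others. Leaving out each region's pair gave 0 calls for cocaine throughout. Among single-gene values under all alternatives, 78 lost their call, 14 gained one and none reversed. The causes were not tested. Cocaine and saline arrays were paired by region, which is a term of the fit, and the labels give no further pairing.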

Other observations

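Exact zeros touched other peptide genes in the VTA. Gal, the galanin precursor, was listed at 5719 on the cocaine array of the VTA and at 0 on the saline array, and Oxt, the oxytocin precursor, at 5087 and at 0 on the same arrays. On the other 8 arrays Gal lay between 4219 and 5340 and Oxt between 4152 and 5210.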
